A study of Arabidopsis thaliana with 9 samples.

Results

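The roots of plants labelled cngc1-3 were compared with roots of the wild type Col-0, using the 6 of 9 ATH1 arrays whose titles carry these line names, 3 arrays per line. The cngc1-3 plants are labelled a T-DNA gene knock out in the Col-0 background, and the wild type is labelled Col-0 stock N1092. Both lines were at growth stage 3.90 and were harvested 25 days after germination, after 18 days over agar and 7 days in aerated nutrient solution. Each tube bulked the roots of 20 to 30 plants, and the labels list no caesium treatment for either line. Whether the 3 tubes of a line came from separate cultures is not given, so every p-value below measures only the spread between tubes.

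Cyclic nucleotide-gated channels are plasma membrane channels through which potassium, calcium and related cations enter plant cells. Plants hold a family of them, and members have been linked to ion uptake, calcium signalling, growth and immunity. In roots, ion supply is tied to proton pumping, calcium sensing, cell wall expansion and the synthesis of defensive compounds, so the results are ordered by these functions. No CNGC gene had a named probe set here (0 genes), so the label of the mutant line could not be checked through its own transcript.

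The arrays of the wild type were not alike. Across all probe sets the cngc1-3 arrays correlated with each other at r = 0.92 to 0.98, and Col-0 replicate 1 correlated with them at 0.86 to 0.93. Col-0 replicate 2 correlated with them at 0.16 and Col-0 replicate 3 at 0.54 to 0.57. The signal of the added spike-in controls was set against the median of the series without Col-0 replicates 2 and 3. It was 18.2 times that median in Col-0 replicate 2 and 7.18 times in replicate 3, against 1.08 in Col-0 replicate 1 and 0.794 to 1.23 in cngc1-3. The actin 3′ to 5′ signal ratio, a measure of RNA integrity, was 200 in cngc1-3 replicate 3, against 1.76 to 1.89 in the other cngc1-3 arrays and 1.34 to 5.81 in Col-0, and its GAPDH ratio was 6.37 against 0.24 to 2.81 in the other 5. Counts of calls and most list medians below are thus given against the mean of 3 Col-0 arrays and against Col-0 replicate 1 alone. Most named genes have the signals of every array, and many also have both differences. Some results that move without cngc1-3 replicate 3 are named.

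Root and leaf markers were read next. PYK10, a β-glucosidase that is abundant in roots, had signals of 4398, 261 and 448 in Col-0 replicates 1, 2 and 3 and of 5559, 4891 and 4690 in cngc1-3 replicates 1, 2 and 3, the order kept in all sentences on signals. The root hair expansin EXPA18 was at 184, 142 and 30.3 in Col-0 and 154, 180.1 and 130.2 in cngc1-3, and its partner EXPA7 at 195, 318 and 28.6 and 60.3, 114 and 23.0. PYK10 was thus above the median signal of every array, though lower in Col-0 replicates 2 and 3 than in the others. Both expansins were under the median signal of 66.3 in Col-0 replicate 3. EXPA7 was lowest in cngc1-3 replicate 3, under that array's median of 37.7. No detection calls were used, so signals this dim do not show that a transcript was present. The summed signal of 11 nuclear photosynthesis genes, which mark green tissue, was 211, 1572 and 36771 in Col-0 and 913, 905 and 1511 in cngc1-3. All 11 were brighter in every cngc1-3 array than in Col-0 replicate 1, and none had a signal of 0. These markers stood at a different level in each Col-0 array, and their part in the results below was not tested. In bulk roots, fewer cells of a type and less RNA per cell cannot be told apart.

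No probe set passed the test between the lines. Differences are in log2(signal + 16), cngc1-3 minus Col-0, with the standard error of the limma fit (SE, n = 3 arrays per line), tested over all 22746 probe sets that are not controls. Of these, 0 (0%) had a Benjamini-Hochberg adjusted p under 0.05 in limma, the smallest adjusted p being 0.196, while 5392 (23.7%) had an unadjusted p under 0.05, 1700 (7.47%) higher and 3692 (16.2%) lower in cngc1-3. In 1853 probe sets (8.15%) every cngc1-3 array lay above every Col-0 array, and in 3256 (14.3%) every cngc1-3 array lay below, 5109 (22.5%) in all. Across the array 15372 probe sets (67.6%) had a lower mean in cngc1-3, and the median difference of all probe sets was -0.42. That split turned with the scaling and with brightness. Without overlap, 3606 probe sets were higher and 1084 lower after each array was centred on its median, and 2330 and 1626 after quantile normalization. Among probe sets past the 40th percentile of mean brightness 1793 were higher and 1547 lower, and past the 60th 1630 and 747.

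Against Col-0 replicate 1 alone, limma again called 0 (0%) probe sets, with 1735 (7.63%) at an unadjusted p under 0.05 and a median difference of -0.04. Every cngc1-3 array was at least 1 log2 unit above Col-0 replicate 1 for 416 probe sets (1.83%) and at least 1 unit below it for 644 (2.83%). Single arrays decided the count of calls. Without Col-0 replicate 1, which left the 2 wild-type arrays unlike all others, limma called 8817 probe sets, and without cngc1-3 replicate 3 8581 probe sets did not overlap in place of 5109. The third array of the other mutant of the series, cngc19, correlated at 0.96 with Col-0 replicate 1 and at 0.89 with its own line, and it entered the shared spread. Leaving it out, a choice made after seeing the data, gave 10 calls, all higher in cngc1-3.

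The genes that best separated the arrays were ranked by the gap between the lowest array of one line and the highest array of the other. Among the 12 leading genes higher in cngc1-3 were a glutathione transferase, a cell wall peroxidase, a chitinase, a flavonoid pathway protein and a defensin-like protein, and the other 7 have no name beyond their locus here. Their differences ran from 2.81 to 4.99 against the 3 Col-0 arrays and from 2.31 to 6.09 against Col-0 replicate 1, with an adjusted p of 0.196 in limma for each. Without cngc1-3 replicate 3 they ran from 2.26 to 6.09 against Col-0 replicate 1.

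AT3G57020 had the widest gap, with signals of 8.95, 44.7 and 84.4 in Col-0 and 1695, 1670 and 1692 in cngc1-3, a difference of 4.99 ± 1.22 (SE), or 6.09 against replicate 1. AT2G41380 followed with 5.02, 8.58 and 3.68 in Col-0 and 268, 325 and 280 in cngc1-3, a difference of 3.82 ± 0.93 (SE) and 3.86 against replicate 1. Both were near alike in the 3 mutant arrays, and AT3G57020 was dimmest in Col-0 replicate 1. GSTU25, a tau-class enzyme that joins glutathione to reactive compounds, was at 46.5, 16.7 and 31.7 in Col-0 and 498, 528 and 637 in cngc1-3, which is 3.62 ± 0.81 (SE) and 3.18 against replicate 1. The peroxidase gene PRX71 (AT5G64120), whose product is secreted to the cell wall, was at 50.2, 14.4 and 5.78 in Col-0 and 716, 1202 and 381 in cngc1-3, a difference of 4.33 ± 1.03 (SE) and 3.42 against replicate 1. The lines did not overlap for either gene, and the PRX71 signal was lowest among the mutant arrays in replicate 3. AT2G41380, GSTU25, AT3G57020 and PRX71 were among the 10 calls without cngc19 replicate 3 (adjusted p 0.0193, 0.0231, 0.0231 and 0.0344 in limma), as were AT2G23910, AT3G52740 and AT4G33560, and the other 3 calls are unnamed here. The named genes had been ranked by their gap in the same arrays, and that fit was chosen after seeing the data. Their calls therefore add no support.

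ChiC, a class V chitinase that cleaves the chitin of fungal walls, was at 77.7, 30.4 and 31.9 in Col-0 and 726, 502 and 411 in cngc1-3, a difference of 3.21 ± 0.72 (SE) and 2.55 against replicate 1. CHIL, a chalcone isomerase-like protein that aids flavonoid synthesis without being an enzyme itself, was at 2.86, 31.3 and 48.7 and 409.6, 450.5 and 269, a difference of 3.31 ± 0.94 (SE) and 4.35 against replicate 1. LCR69, a small cysteine-rich protein of the defensin type, was at 792, 10.0 and 898 and 4496, 3295 and 4253, a difference of 3.90 ± 1.30 (SE) and 2.31 against replicate 1. In LCR69 the Col-0 arrays spread widely, with replicate 2 near the bottom of the scale and replicates 1 and 3 close together. Of the remaining leading genes, AT5G57785 was at 19.0, 101 and 92.8 in Col-0 and 891, 972 and 1588 in cngc1-3, and AT2G41730 at 23.1, 26.9 and 11.5 and 276, 225 and 209. AT3G52740 was at 14.2, 10.3 and 20.9 and 257, 252 and 403. AT2G23910 was at 29.4, 6.07 and 13.7 and 298, 343 and 466, and AT4G33560 at 39.8, 25.8 and 3.75 and 493, 344 and 599.7. AT5G57785 was dim in Col-0 replicate 1 alone, and the other 4 of these loci were dim in all 3 Col-0 arrays.

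The 12 leading genes lower in cngc1-3 held 11 loci with no further name here and the mitochondrial gene ccb382. Their differences ran from -3.25 to -1.73 against the 3 Col-0 arrays and from -4.29 to -1.33 against Col-0 replicate 1, again with an adjusted p of 0.196 in limma for each. AT1G67865 was at 489.6, 109 and 219 in Col-0 and 7.96, 14.6 and 7.67 in cngc1-3, a difference of -3.25 ± 0.75 (SE), or -4.29 against replicate 1. AT4G32950 was at 118, 139 and 95.3 and 8.70, 12.7 and 12.7, a difference of -2.28 ± 0.78 (SE) and -2.30. These loci were dim in the mutant arrays, where a difference on this scale is understated. AT4G00780 was at 175, 103 and 261 and 26.1, 18.8 and 21.0, a difference of -2.29 ± 0.71 (SE) and -2.33. AT5G40450 was at 549, 373 and 529.5 in Col-0 and 36.8, 28.7 and 132 in cngc1-3, where replicate 3 stood above the other mutant arrays, and its difference from Col-0 replicate 1 was -3.0 with that array and -3.54 without it. Signals of ccb382, which takes part in cytochrome c maturation, were 156, 729 and 627 in Col-0 and 56.5, 47.3 and 53.4 in cngc1-3. The remaining loci were AT3G53820, AT2G30670, AT5G52710, AT2G07741, AT5G59650, AT2G17060 and AT5G62420, whose arrays also did not overlap between the lines.

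Defence proteins were among the lists with the most separated members. Of 19 genes for defensins, chitinases, pathogenesis-related and similar proteins, 8 were higher and 11 lower in cngc1-3 (median -0.29, against -0.42 for all probe sets; 0.22 under median centring and 0.01 under quantile normalization), and 0 passed the test. In 7 the cngc1-3 arrays lay above all Col-0 arrays (8.15% of all probe sets did) and in 1 below (14.3% of all). Against Col-0 replicate 1, 16 of the 19 were higher, with a median of 0.29. Beside ChiC and LCR69, the defensin gene PDF2.1 was at 99.8, 9.35 and 80.0 in Col-0 and 398, 306 and 602 in cngc1-3, a difference of 2.73 ± 0.69 (SE) and 1.91 against replicate 1. PDF2.5, of the same defensin family, was at 181, 112 and 13.0 and 347, 405 and 349, a difference of 2.08 ± 0.65 (SE) and 0.95. These members were named for their gap, and the difference of each was smaller against replicate 1 than against the mean of 3.

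ER bodies are vesicles of root and seedling cells that store β-glucosidases able to split glucosinolates, sulphur compounds that deter herbivores and microbes. Of 31 genes for glucosinolate and ER body functions, 6 were above all Col-0 arrays without overlap and 2 below (8.15% and 14.3% of all probe sets), with a median difference of -0.29 that turned to 0.23 under median centring and to 0.06 under quantile normalization, and 0.11 against replicate 1. JAL33, a sugar-binding jacalin-related lectin, was at 1319, 256 and 290.2 in Col-0 and 3903, 3941 and 4195 in cngc1-3, a difference of 3.07 ± 1.41 (SE) and 1.59 against replicate 1. The related lectin gene JAL22 was at 319, 38.0 and 406 and 1123, 1286 and 2050, a difference of 2.88 ± 0.83 (SE) and 2.12. NAI2, needed to form ER bodies, was at 785, 16.7 and 91.0 and 1318, 1209 and 2973, a difference of 3.59 ± 1.15 (SE). Its difference from replicate 1 was 1.08 with cngc1-3 replicate 3 and 0.67 without it, since replicate 3 carried the brightest signal. PYK10 itself differed by 2.61 ± 1.35 (SE) from the 3 Col-0 arrays and by 0.19 from replicate 1. The β-glucosidase gene BGLU31 was dim throughout and lower, at 9.60, 9.13 and 42.0 and 4.16, 1.19 and 1.82.

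Detoxifying enzymes differed gene by gene. Of 14 glutathione S-transferases 9 were higher (median 0.26), and against replicate 1 they split 7 to 7 (median 0.03). GSTU22 was at 284, 25.4 and 58.2 in Col-0 and 862, 583 and 713 in cngc1-3, a difference of 2.90 ± 0.70 (SE) and 1.27 against replicate 1. GSTU26 was at 462, 86.3 and 4.63 and 482, 467 and 630.1, so that Col-0 replicate 1 was near the mutant arrays and the difference was 2.42 ± 0.86 (SE) against 3 arrays but 0.17 against replicate 1. Of 51 UDP-glycosyltransferases, which attach sugars to small molecules, 5 were higher and 4 lower without overlap, near or under the 8.15% and 14.3% of all probe sets, and the medians were -0.35 (0.17 under median centring) and -0.05. UGT84A1, which glucosylates hydroxycinnamic acids, was at 0.82, 15.6 and 2.94 in Col-0 and 92.1, 119 and 66.7 in cngc1-3, a difference of 2.30 ± 0.77 (SE) and 2.66 against replicate 1. UGT73B4 was at 2.35, 18.9 and 3.84 and 30.9, 56.4 and 90.2, and UGT74D1 at 66.3, 86.4 and 31.6 and 125, 236 and 175. All 3 of these transferases were brighter in every mutant array, while UGT76D1 was dimmer, at 107, 279.5 and 89.6 in Col-0 and 54.8, 50.99 and 46.4 in cngc1-3. Of 24 cytochrome P450s 20 had a lower mean in cngc1-3, where 67.6% of all probe sets did. Their median was -0.55, or -0.03 under median centring and -0.18 under quantile normalization. Without overlap 2 were higher and 3 lower, and against replicate 1 9 were lower (median 0.09). CYP71B37 was highest by gap, at 91.9, 47.4 and 14.4 and 200.2, 179 and 257.

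Phenylpropanoid genes included CHIL and FACT, an acyltransferase that makes alkyl caffeates found in root waxes. FACT was at 171, 138 and 37.2 in Col-0 and 616, 462 and 538 in cngc1-3, a difference of 2.26 ± 0.58 (SE) and 1.56 against replicate 1. UF3GT, also named UGT79B1, went the other way, at 22.4, 190.5 and 88.5 and 9.27, 15.2 and 3.90. Its annotation as a flavonoid glucosyltransferase was not checked. The list of 10 as a whole had 4 higher and 6 lower members, a median of -0.33 that turned to 0.19 and 0.04 under both scalings, and a median of -0.03 against replicate 1. Of 7 class III peroxidases 4 were higher, with a median of 2.13 that was -0.42 against replicate 1. The abundant peroxidase gene PRXR1 showed this dependence on the reference, at 5926, 17.7 and 2073 in Col-0 and 3553, 3450 and 2839 in cngc1-3, where replicate 1 lay above and replicate 2 far below the mutant arrays. PRX71 was the member that separated the lines under both references.

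Most transcripts for respiration had higher values in cngc1-3 under both references. Of 16 genes for glycolysis, the mitochondrial chain and the glyoxylate cycle 13 were higher, 8 of them without overlap, and 1 was lower without overlap (8.15% and 14.3% of all probe sets). These genes were bright, with median signals of 423, 436 and 477 in cngc1-3, where the array medians were 32 to 37.7. Bright probe sets leaned higher as a whole, with 1630 higher and 747 lower without overlap past the 60th percentile of brightness. The part of brightness in these counts was not tested. The list had a median of 1.26, which stayed above 0 under median centring (1.78) and quantile normalization (1.18), and 0 members passed the test. Against Col-0 replicate 1, 13 of 16 were again higher, with a median of 0.35, and 0.32 without cngc1-3 replicate 3. CYTC-1, a gene for the electron carrier cytochrome c, was at 1790, 234 and 436 in Col-0 and 3848, 3049 and 3049 in cngc1-3, a difference of 2.49 ± 1.01 (SE) and 0.87 against replicate 1. The second cytochrome c gene CYTC-2 was at 190.3, 159 and 51.8 and 396, 446 and 575, a difference of 1.84 ± 0.57 (SE) and 1.23. SDH2-1, the iron-sulphur subunit of succinate dehydrogenase, was at 577, 310.3 and 266 and 1416, 1112 and 1582, a difference of 1.85 ± 0.64 (SE) and 1.21. ICL, the isocitrate lyase of the glyoxylate cycle, was dim, at 13.0, 22.4 and 10.3 in Col-0 and 54.7, 59.0 and 82.0 in cngc1-3. These 4 genes lay above every Col-0 array in all 3 mutant arrays. PDC2, a pyruvate decarboxylase that opens the fermentation pathway, was at 148, 13.8 and 156 and 491, 585 and 269, a difference of 2.23 ± 0.73 (SE) and 1.43, with replicate 3 the lowest mutant array.

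Genes carried by the organelles were lower against the 3 Col-0 arrays. All 69 chloroplast-encoded genes were lower (median -2.49), 15 without overlap, and all 15 mitochondrially encoded genes were lower (median -1.42), 5 without overlap, where 14.3% of all probe sets were lower without overlap. Both medians stayed below 0 under median centring (-1.97 and -0.91) and quantile normalization (-2.43 and -1.20). Against Col-0 replicate 1 the chloroplast genes split 33 higher to 36 lower with a median of -0.04, while 13 of the 15 mitochondrial genes were still lower, with a median of -0.20. The median signal of the chloroplast genes was 60.6, 247 and 2884 in Col-0 and 68.0, 54.7 and 22.0 in cngc1-3. Col-0 replicate 3 was the highest array and cngc1-3 replicate 3 the lowest. The mitochondrial gene nad4, for a subunit of complex I, was at 123, 89.7 and 2341 in Col-0 and 45.3, 31.6 and 6.07 in cngc1-3, a difference of -3.02 ± 0.97 (SE), with -1.79 against replicate 1 and -1.36 when cngc1-3 replicate 3 was left out. The complex I gene nad9 was at 45.5, 36.4 and 326 and 5.22, 16.4 and 15.8. The chloroplast ribosomal gene rpl16 was at 42.3, 97.3 and 2520 in Col-0 and 8.26, 12.7 and 8.59 in cngc1-3, below every wild-type array. Nuclear photosynthesis genes reversed between references, with 11 of 11 lower than the mean of 3 arrays (median -1.08) and 11 of 11 higher than replicate 1 (median 1.66, 9 by at least 1 unit in every array). LHCB4.1, a light-harvesting protein of photosystem II, was at 36.8, 19.9 and 5551 in Col-0 and 206, 205 and 164 in cngc1-3.

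**Figure D1:**
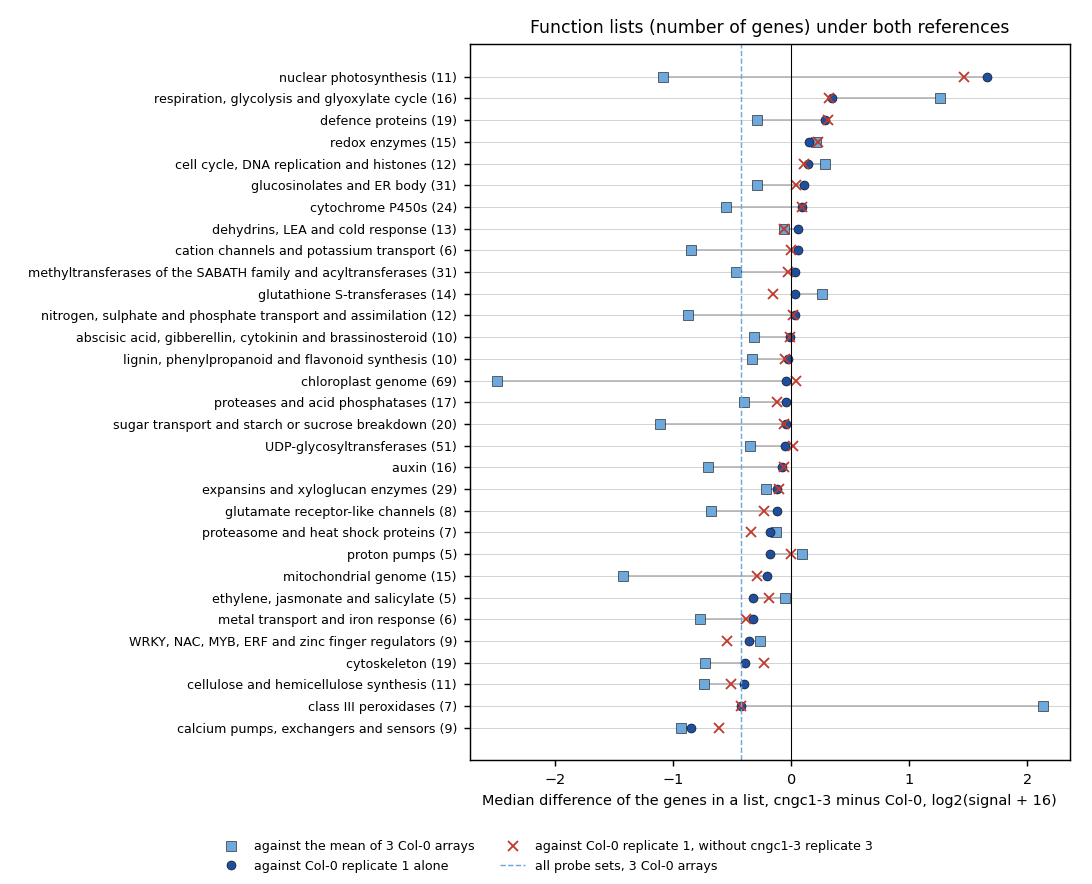
Median difference of each function list, cngc1-3 minus Col-0 in log2(signal + 16), against the mean of 3 Col-0 arrays (squares), against Col-0 replicate 1 alone (circles), and against replicate 1 without cngc1-3 replicate 3 (crosses), with the number of genes in brackets. Photosynthesis moves from -1.08 to 1.66 between references, the chloroplast genome from -2.49 to -0.04 and respiration from 1.26 to 0.35.

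Ion transport and calcium signalling were read through small lists, because few of these genes had a named probe set. All 6 named cation transport genes were cation/proton exchangers of the CHX family, 5 lower against the 3 Col-0 arrays (median -0.85) and 5 higher against replicate 1 (median 0.06). CHX16 was at 22.6, 12.7 and 11.6 in Col-0 and 33.2, 48.6 and 43.8 in cngc1-3, a difference of 0.88 ± 0.47 (SE) and 0.58 against replicate 1, and CHX19 was at 15.1, 81.0 and 99.1 and 15.2, 8.90 and 26.0. All 8 glutamate receptor-like channels were lower (median -0.68; -0.16 under median centring and -0.37 under quantile normalization), and 5 of 8 were lower than replicate 1 (median -0.12). Of these GLR1.4 lay below all Col-0 arrays, at 34.2, 319 and 123 and 19.7, 16.9 and 28.5.

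Of 9 genes matched by name to calcium pumps, exchangers and sensors 7 were lower under both references, with medians of -0.93 and -0.85. Against replicate 1 the median was -0.61 without cngc1-3 replicate 3. The list median stayed below 0 under median centring (-0.41) and quantile normalization (-0.63). The calmodulin-like sensor gene CML42 was the exception that separated upwards, at 188, 8.01 and 115 in Col-0 and 375, 272 and 265 in cngc1-3, a difference of 1.87 ± 0.67 (SE) and 0.63 against replicate 1. The related gene CML41 was at 44.1, 189 and 38.0 and 18.1, 15.8 and 12.3, a difference of -1.48 ± 0.56 (SE) and -0.94. CML39 (AT1G76640) was near the bottom of the scale in cngc1-3, at 15.9, 28.2 and 10.9 and 0.88, 2.28 and 1.86. ACA.l, annotated as an autoinhibited calcium ATPase, was at 94.8, 62.2 and 149 in Col-0 and 42.6, 48.3 and 15.6 in cngc1-3. That annotation was not checked. The ACA.l difference was -1.20 ± 0.48 (SE) and -1.17 against replicate 1, or -0.85 without cngc1-3 replicate 3, its dimmest array. CML42 and the 3 lower genes had no overlap between lines, where 8.15% of all probe sets were higher and 14.3% lower without overlap. The 5 proton pump subunits had a median of 0.09, and of -0.18 against replicate 1. Among them VHA-F (AT4G02620) of the vacuolar pump lay above all Col-0 arrays, at 1085, 88.7 and 631 and 1851, 1460 and 1984.

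Nutrient genes gave single members that separated the lines. APS4, an ATP sulphurylase that starts sulphate assimilation, was at 768, 212 and 177 in Col-0 and 1256, 1312 and 1469 in cngc1-3, a difference of 2.06 ± 0.75 (SE) and 0.79 against replicate 1. Its homologue APS3 lay lower, at 95.4, 179 and 70.2 and 40.2, 52.6 and 21.9, a difference of -1.23 ± 0.48 (SE) and -1.08, or -0.84 without cngc1-3 replicate 3. The 2 genes of this enzyme that had a name here thus differed in opposite directions, and any others were not read. The nitrate transporter gene NRT2.5 was at 7.85, 119.7 and 152 and 2.26, 4.41 and 7.33, close to Col-0 replicate 1 (-0.21) and far below the other Col-0 arrays. The list of 12 had 11 lower members (median -0.87), and 5 lower than replicate 1 (median 0.03).

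Of 6 metal transport genes 4 were lower (median -0.77, or -0.26 under median centring), and the median was -0.32 against replicate 1. Without overlap 1 was higher and 2 were lower, where 8.15% and 14.3% of all probe sets were. The 2 lower ones were ZIP9 and ZIP6 of the zinc-iron transporter family. ZIP9 was at 65.6, 137 and 55.5 in Col-0 and 11.9, 12.8 and 14.2 in cngc1-3, a difference of -1.74 ± 0.50 (SE) and -1.50 against replicate 1. ZIP6 was at 109.7, 232 and 44.0 and 33.7, 33.7 and 34, a difference of -1.31 ± 0.60 (SE) and -1.34. Both were below every Col-0 array, whereas MTP11, a manganese transporter, was above, at 132, 12.8 and 123 and 360, 332 and 614, a difference of 2.37 ± 0.69 (SE) and 1.55. Of 20 genes of sugar transport and carbohydrate breakdown 16 were lower (median -1.11; -0.59 under median centring), 4 without overlap, where 67.6% of all probe sets were lower and 14.3% lower without overlap, and against replicate 1 the median was -0.04. The vacuolar sugar transporter gene TMT2 was at 86.4, 159.8 and 141 in Col-0 and 41.4, 60.4 and 38.8 in cngc1-3, a difference of -1.19 ± 0.41 (SE) and -0.72 against replicate 1.

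Most wall synthesis genes had lower values under both references, and 0 passed the test. Of 11 genes for cellulose and hemicellulose synthesis 9 were lower than the 3 Col-0 arrays (median -0.74; -0.22 under median centring and -0.31 under quantile normalization), 4 without overlap, where 67.6% of all probe sets were lower and 14.3% lower without overlap, and 10 of 11 were lower than replicate 1 (median -0.40). CSLC04, a synthase of the xyloglucan backbone, was at 212, 252 and 140.5 in Col-0 and 78.5, 85.5 and 99.0 in cngc1-3, a difference of -1.04 ± 0.38 (SE) and -1.14 against replicate 1. CSLC5 was at 109, 276 and 99.5 and 72.8, 70.9 and 56.3, and the xylan synthesis gene GUT2, also named IRX10, at 114, 398 and 161 and 65.3, 79.1 and 78.7. In each of the 3 the brightest mutant array was below the dimmest Col-0 array. Wall-loosening genes were mixed, with 12 of 29 expansins and xyloglucan enzymes higher and medians of -0.21 (0.30 and 0.14 under median centring and quantile normalization) and -0.12. XTH32, which cuts and rejoins xyloglucan, was at 64.5, 157 and 132 and 289, 247 and 232, a difference of 1.09 ± 0.51 (SE) and 1.75. XTH16 of the same family was at 189, 216 and 75.9 and 71.0, 58.9 and 42.2, a difference of -1.18 ± 0.64 (SE) and -1.50, so both members separated the lines in opposite directions.

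Of 19 cytoskeleton genes 13 were lower (median -0.73; -0.21 under median centring), about the 67.6% of all probe sets, 5 without overlap (14.3% of all), and 14 were lower than replicate 1 (median -0.39). KINESIN-13A, a microtubule motor, was at 245, 314 and 220.1 in Col-0 and 109, 121 and 176 in cngc1-3, a difference of -0.88 ± 0.45 (SE) and -0.81 against replicate 1. Of 12 cell cycle and chromatin genes 8 were higher (median 0.29, and 0.14 against replicate 1). AUR2, an Aurora kinase of dividing cells, was at 49.5, 21.9 and 57.6 and 96.3, 81.5 and 87.1, a difference of 0.88 ± 0.42 (SE) and 0.67, while the linker histone gene HON4 was at 144, 189 and 297 and 62.5, 88.5 and 78.0, a difference of -1.25 ± 0.40 (SE) and -0.81. These 2 genes separated the lines in opposite directions. RPN12a, a subunit of the proteasome lid, was at 619.9, 214 and 163 and 795, 910 and 890.1.

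**Figure D2:**
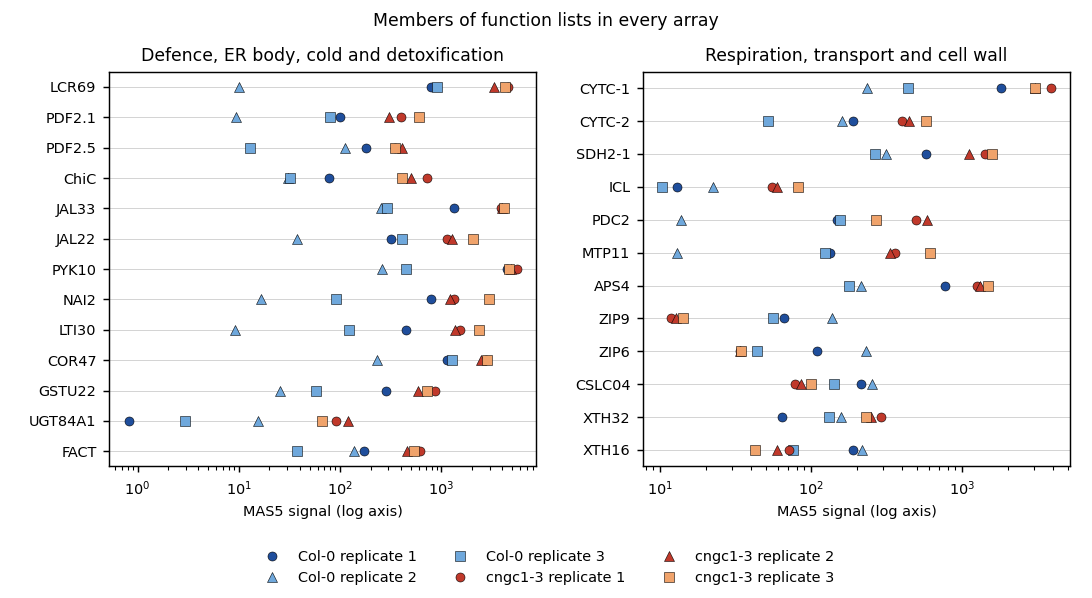
MAS5 signal (log axis) of members of the function lists, 1 point per array, with 3 Col-0 arrays in blue and 3 cngc1-3 arrays in red or orange. LTI30, JAL33 and FACT lie above every Col-0 array in cngc1-3 and ZIP9 and CSLC04 below, and Col-0 replicate 1 is the Col-0 array nearest to the mutant for PYK10 and CYTC-1.

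Cold and dehydration proteins split. LTI30, a dehydrin that protects membranes, was at 447, 9.16 and 122.5 in Col-0 and 1540, 1371 and 2327 in cngc1-3, a difference of 3.87 ± 1.03 (SE) and 1.89 against replicate 1. The dehydrin gene COR47 was at 1141, 233 and 1258 and 2762, 2468 and 2830, a difference of 1.91 ± 0.96 (SE) and 1.22. COR15A, a chloroplast protein of cold-treated leaves, was at 15.6, 150.2 and 1533 and 7.50, 5.86 and 5.50, with its high value in Col-0 replicate 3, the array brightest for photosynthesis genes. The list of 13 had 6 higher and 7 lower members, a median of -0.06 (0.46 and 0.07 under median centring and quantile normalization) and a median of 0.06 against replicate 1.

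Hormone and regulator lists depended on the scaling. Of 16 auxin genes 14 were lower (67.6% of all probe sets were), with a median of -0.70, or -0.18 under median centring, and 11 were lower than replicate 1 (median -0.08). IAA29, an auxin response repressor, was at 19.4, 13.7 and 184 in Col-0 and 3.95, 6.71 and 3.83 in cngc1-3. ARR15, a cytokinin response regulator, was at 28.4, 86.2 and 47.5 and 4.03, 8.31 and 1.71, a difference of -1.69 ± 0.47 (SE) and -1.12 against replicate 1. It was the member of its list of 10 with the widest gap, and that list had 8 lower members and a median of -0.31 (0.21 and 0.03 under median centring and quantile normalization), or -0.01 against replicate 1. Of 9 regulators of the WRKY, NAC, MYB, ERF and zinc finger families 6 were lower (median -0.26, but 0.25 and 0.28 under median centring and quantile normalization) and 7 were lower than replicate 1 (median -0.36). WRKY22, a factor of the immune response, was at 57.2, 32.1 and 30.0 and 22.4, 15.3 and 25.9. The 5 ethylene, jasmonate and salicylate genes had a median of -0.05 (0.46 and 0.29 under both scalings) and of -0.32 against replicate 1. Of 15 redox enzymes 10 were higher, with a median of 0.21 and of 0.15 against replicate 1. Without overlap 1 was higher and 3 were lower, where 8.15% and 14.3% of all probe sets were. The mitochondrial thioredoxin gene TO2 was above every Col-0 array, at 96.4, 62.9 and 39.0 and 162, 117 and 142. GRX480, a glutaredoxin, was at 27.9, 157 and 104 and 19.8, 11.1 and 19.9, and the copper chaperone gene CCS was at 204, 238 and 164 and 83.3, 111 and 116, both below every Col-0 array. Of 17 proteases and acid phosphatases 2 were higher and 2 lower without overlap, about the 8.15% and 14.3% of all probe sets, among them SCPL45, a serine carboxypeptidase-like protein, at 119.9, 32.5 and 191 in Col-0 and 298, 253 and 235 in cngc1-3.

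**Figure D3:**
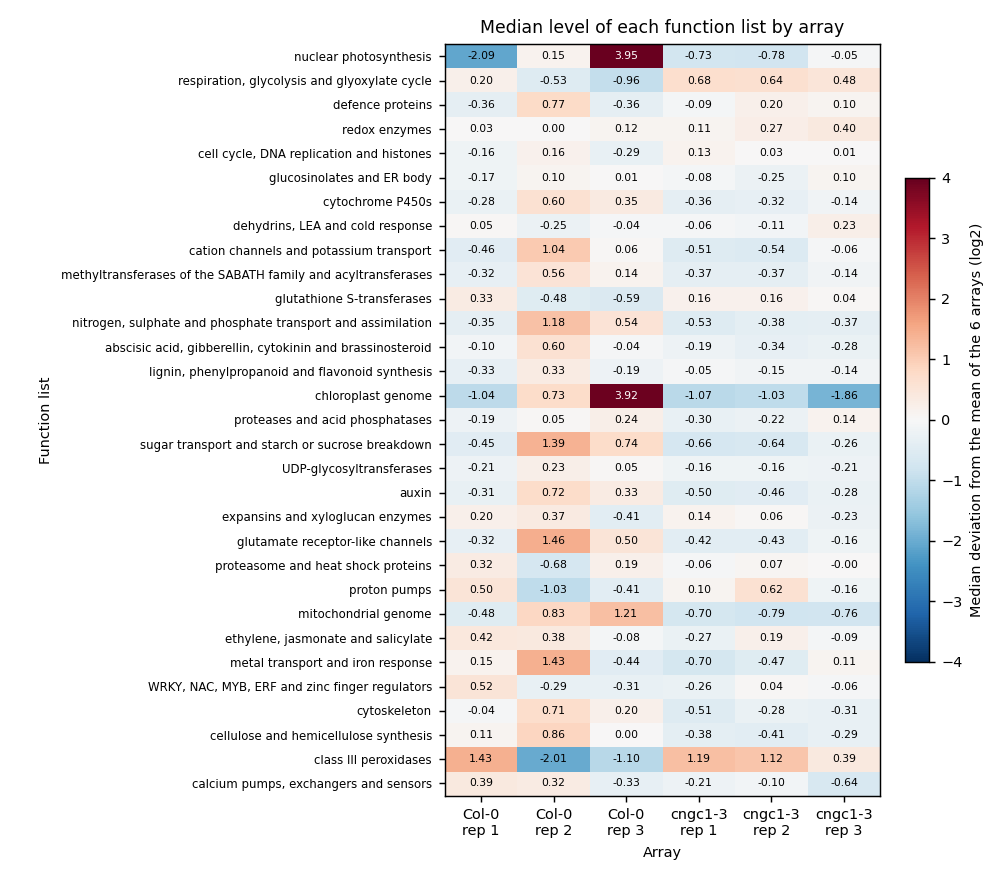
Median deviation of each function list from the mean of the 6 arrays, in log2(signal + 16), for 3 Col-0 and 3 cngc1-3 arrays (columns). Photosynthesis genes stand at -2.09, 0.15 and 3.95 in Col-0 replicates 1, 2 and 3, and the respiration list is above its mean in every cngc1-3 array.

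When Col-0 replicate 1 was the reference and cngc19 replicate 3 was left out, 479 probe sets passed an adjusted p under 0.05 in limma (2.11%), 183 higher (0.805%) and 296 lower (1.3%) in cngc1-3. This choice was made after seeing the data, and with a single Col-0 array the spread came from the mutant arrays alone, so these calls hold no estimate of how wild-type roots vary. Part of these calls also lay outside both other Col-0 arrays, but so did part of all probe sets. Of 5598 probe sets above Col-0 replicate 1 in every cngc1-3 array, 1853 lay above all 3 Col-0 arrays. Of 7314 below it, 3256 lay below all 3. The leading genes and FACT, JAL33, JAL22, LTI30, UGT84A1, XTH32 and ZIP9 were named above for a gap that includes their distance from Col-0 replicate 1. Calls for them here therefore add no support. The genes that follow were chosen after their values were seen. TIL, a temperature-induced lipocalin, was at 317, 163 and 1259 in Col-0 and 1207, 1249 and 1826 in cngc1-3, and UGT78D2, a flavonoid glucosyltransferase, at 32.5, 152 and 97.5 and 161, 257 and 177. RALFL24, a gene of the RALF family of secreted signalling peptides, was at 73.8, 11.6 and 162 and 404, 268 and 323. Of these 3, UGT78D2 and RALFL24 lay above all Col-0 arrays, and TIL in cngc1-3 overlapped Col-0 replicate 3. STZ, a zinc finger repressor of salt and stress responses, was at 767, 20.1 and 17.7 in Col-0 and 41.9, 84.7 and 68.2 in cngc1-3. CML23, a calmodulin-like sensor, was at 238, 5.73 and 2.56 and 26.3, 30.1 and 33.6. Both were lower than Col-0 replicate 1 and higher than the other Col-0 arrays, so their direction rests on which wild-type array is read. GI (GIGANTEA), a circadian clock protein, was at 126, 16.4 and 394 and 12.8, 12.04 and 22.3, where cngc1-3 was below Col-0 replicates 1 and 3 and overlapped replicate 2.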

How the data were processed

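Root RNA was hybridised to 1-colour ATH1 arrays, and the deposited values are MAS5 signal intensities on a linear scale, made by the authors; the submitters' processing notes name MAS5 and GCOS, with versions not given in the sources used here. Such scaling fixes the mean brightness of each array whatever its content. Of 22810 probe sets, 64 controls were left out. The platform annotation, updated through RefSeq (TAIR10.1), gave 1 gene for 13513 probe sets, several for 503 and none for 8730, and 1697 of the first had a name beyond the locus.

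The deposited intensity values were analysed as log2(signal + 16) with limma 3.58.1 in R 4.3.3 (lmFit, eBayes with trend, 9 arrays, two-sided, Benjamini-Hochberg adjustment), after testing on simulated data. The number of arrays limits the precision, and no detection calls were used. Leading genes were the 12 per direction with the widest gap. In each function list, with 1 probe set per gene, up to 4 members without overlap and the widest gap could be named, filled to 2 by brightness, and lists under 5 genes got no median. Root markers are named as markers. Lists, matched by gene name, and members were chosen with earlier results of these data known. Tables and plots used Python 3.11.15, pandas 2.3.3 and matplotlib 3.10.9.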

Additional observations from a re-analysis of the deposited data

How the results depend on the processing

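The count of 0 probe sets past an adjusted p under 0.05 in limma (5392 at an unadjusted p under 0.05) was also found at a threshold of 0.1, with pseudocounts of 1 and 64, with filters at the 40th and 60th percentile of brightness, under quantile normalization, median centring, eBayes without trend and robust eBayes, with only the 6 arrays of these lines, and against Col-0 replicate 1 alone, with or without cngc1-3 replicate 3. It was 7951 with array weights, and it ranged from 0 to 8817 when 1 array of either line was left out, the highest without Col-0 replicate 1. It was 10 without cngc19 replicate 3 and 479 against Col-0 replicate 1 alone without cngc19 replicate 3, both chosen after seeing the data. The 5109 probe sets without overlap became 3340 and 2377 under the filters, which test fewer probe sets, 12912 against Col-0 replicate 1 alone, with or without cngc19 replicate 3, and 17955 when cngc1-3 replicate 3 was left out too. With 1 array of either line left out they ranged from 5903 to 13296. Comparing fewer arrays makes overlap rarer by construction. Of probe sets without overlap 36.3% were higher, against 76.9% under median centring and 58.9% under quantile normalization, and the median of all probe sets was -0.42, 0.10 and -0.09. With the scaling unchanged, 53.7% were higher under the filter at the 40th percentile and 68.6% under that at the 60th. The cause of the other changes was not tested.

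Of 85 named genes 7 changed sign under some alternative. CHX19 turned to 0.04 against Col-0 replicate 1 alone, with or without cngc19 replicate 3. PRXR1 ranged from -0.10 without Col-0 replicate 2 to 3.63 without Col-0 replicate 1, with -0.86 against replicate 1 and -0.76 without cngc1-3 replicate 3 as well. EXPA18 ranged from -0.07 without Col-0 replicate 3 to 0.99 without Col-0 replicate 1, with -0.24 against replicate 1 and -0.13 without cngc1-3 replicate 3 as well. LHCB4.1 turned from -0.08 to 0.23 with a pseudocount of 1, 0.42 and 0.43 under quantile normalization and median centring, 1.97 against replicate 1 and 2.07 with cngc1-3 replicate 3 left out too, and ranged from -1.39 without Col-0 replicate 2 to 2.25 without Col-0 replicate 3, with 0.01 without cngc1-3 replicate 3. CML23 turned from -0.03 to 0.79 with a pseudocount of 1, 0.31 and 0.49 under quantile normalization and median centring, and 0.81 with array weights, and ranged from -0.70 without Col-0 replicate 3 to 1.19 without Col-0 replicate 1, with 0.03 without cngc1-3 replicate 1. STZ turned from -0.32 to 0.15 and 0.20 under those scalings, and 0.63 with array weights, and ranged from -1.09 without Col-0 replicate 3 to 1.18 without Col-0 replicate 1. EXPA7 turned to 0.51 with array weights. Of 31 list medians 12 changed sign under median centring, 10 under quantile normalization and 10 against Col-0 replicate 1 alone.

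Same-numbered arrays of both lines showed little shared deviation (r of 0.14, -0.12 and 0.16). The Col-0 deviations include those of the wild-type arrays unlike all others, which could mask a pairing. These values therefore cannot decide whether the replicate numbers pair the arrays. With the replicate number as a block limma called 0 probe sets (smallest adjusted p 0.198).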
